A study of Mus musculus with 6 samples.

Results

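The genes described here are 9 transcription factors that pattern the midbrain and the isthmus, the constriction between midbrain and hindbrain. They were taken by name, as Otx2, Gbx2, Pax2, Pax5, Pax8, En1, En2, Lmx1b and Dmbx1, and all 9 were found among the 51733 gene symbols of each count table. RNA had been sequenced from neural progenitor cells (NPCs) of C57BL/6 embryos at E13.5 (mid-gestation, during neurogenesis), sorted as SOX2-positive from dissected neural tubes. The 3 libraries labelled wildtype, which the study describes as sibling controls, are called control A, B and C here. The 3 libraries labelled YBX1KO, which lack the RNA- and DNA-binding protein Ybx1, are called Ybx1-KO D, E and F. The knockout is the germline Ybx1tm1Ley null allele, so every tissue of the embryo carries it. The study describes the sort for these libraries as one on a Sox2-GFP reporter, in which the fluorescent protein is expressed from the Sox2 locus, and whether embryos were pooled is not given in the sources used here. Because the whole neural tube was dissected, midbrain cells were not separated from forebrain, hindbrain or spinal cord cells.

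During neural tube development Otx2 marks the forebrain and midbrain, Gbx2 marks the anterior hindbrain, and the border between their domains positions the isthmic organizer. This small signalling center secretes Fgf8 and Wnt1, and Pax2, Pax5, Pax8, En1, En2 and Lmx1b form the network that establishes and maintains it. Dmbx1 is a homeobox gene of midbrain progenitors. Most of these genes are used again elsewhere at this stage. Pax2 and Pax8 are expressed in inhibitory interneurons of the spinal cord and hindbrain, En1 in ventral spinal interneurons, Lmx1b in dorsal spinal and serotonergic neurons, and Otx2 in the choroid plexus. On GRCm38, the GENCODE M21 genes lie at chr14:48657677-48673819 (Otx2, minus strand), chr1:89927956-89931179 (Gbx2, minus), chr19:44756045-44837871 (Pax2, plus), chr4:44524757-44710487 (Pax5, minus), chr2:24420560-24475599 (Pax8, minus), chr1:120602418-120607992 (En1, plus), chr5:28165694-28172166 (En2, plus), chr2:33560965-33640511 (Lmx1b, minus) and chr4:115915119-115939926 (Dmbx1, minus), and all 9 are protein-coding.

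Promoter sequences are shown for 4 of the genes because the 3 Pax paralogues and En1 carry the contrasts described next. RefSeq start sites were matched for 8 of the 9 genes, on GRCm38.p6, and En2 was not in that table. The window is the 250 bases upstream of the start site, on the strand of the gene. Where a gene has several RefSeq starts, as Pax2 (3 windows) and Otx2 (4) do, the start nearest the GENCODE 5′ end was taken. The starts taken for Pax2, Pax5 and Lmx1b lay 293, 207 and 587 bases from that end. The bases after these starts were not found in a GENCODE transcript, whereas those after another Pax2 start were. Capitals mark ATTGG or its reverse complement CCAAT, the core of the Y-box from which Y-box proteins such as Ybx1 take their name. The windows lie at chr19:44755502-44755751 (plus strand) for Pax2, chr4:44710695-44710944 (minus) for Pax5, chr2:24475600-24475849 (minus) for Pax8 and chr1:120602237-120602486 (plus) for En1.
Pax2: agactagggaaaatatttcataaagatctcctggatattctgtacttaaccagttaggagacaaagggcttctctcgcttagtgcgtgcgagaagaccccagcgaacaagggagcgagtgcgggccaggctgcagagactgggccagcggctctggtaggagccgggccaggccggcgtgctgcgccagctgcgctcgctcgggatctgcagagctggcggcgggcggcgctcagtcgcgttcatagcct
Pax5: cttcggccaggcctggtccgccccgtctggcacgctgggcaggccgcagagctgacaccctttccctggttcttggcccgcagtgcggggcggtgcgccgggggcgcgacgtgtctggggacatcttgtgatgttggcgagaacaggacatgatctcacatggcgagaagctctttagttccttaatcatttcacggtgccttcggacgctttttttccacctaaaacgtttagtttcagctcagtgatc
Pax8: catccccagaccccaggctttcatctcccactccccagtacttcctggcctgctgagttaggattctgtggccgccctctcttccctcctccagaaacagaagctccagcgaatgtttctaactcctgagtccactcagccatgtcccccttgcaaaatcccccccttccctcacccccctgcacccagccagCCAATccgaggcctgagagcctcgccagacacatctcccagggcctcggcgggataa
En1: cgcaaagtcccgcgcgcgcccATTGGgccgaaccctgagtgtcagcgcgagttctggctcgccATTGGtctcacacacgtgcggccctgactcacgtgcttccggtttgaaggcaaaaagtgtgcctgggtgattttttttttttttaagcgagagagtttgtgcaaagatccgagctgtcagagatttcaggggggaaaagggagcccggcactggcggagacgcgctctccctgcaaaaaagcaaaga

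ATTGG or CCAAT was found on either strand in 4 of the 8 windows, those of En1, Pax8, Lmx1b and Dmbx1, and in 33.8% of all 32851 promoter windows of this length. En1 held 2 matches, starting 229 and 187 bases upstream of the start site, and Pax8 held 1, 57 bases upstream. The full Y-box CTGATTGG was found in none of the 8 windows and in 3.83% of all windows. The homeodomain core TAATTA was found in 1 of the 8, that of Otx2, and in 4.84% of all. That Otx2 window lies 6175 bases from the GENCODE 5′ end, and of the 4 Otx2 windows 2 held TAATTA and 1 held ATTGG or CCAAT. These matches describe letters only. The windows of Pax2, Pax5 and En1 held 20, 19 and 19 CpG dinucleotides, against 6 for Pax8 and a median of 6 over all windows, so the paralogues Pax2 and Pax8 differed in CpG number.

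Counts on genes ranged from 4743279 in library F to 23883542 in control B. At these depths 3 counts correspond to 0.126 to 0.632 CPM, the count scaled to a common library size. Levels are given as CPM after TMM normalization and, where genes are compared with each other, as FPKM, which divides by exon length and by the library total on genes. Ybx1 itself had 235 (A), 523 (B) and 301 CPM (C) in control libraries and 124 (D), 54.5 (E) and 9.51 CPM (F) in Ybx1-KO libraries (log2 fold change −2.49 ± 0.675 SE, n = 3 per group; edgeR quasi-likelihood test, Benjamini-Hochberg adjusted p = 0.301), so the targeted gene was lower in each Ybx1-KO library than in any control, without an adjusted call. Counts cover the whole gene, and what the null allele still transcribes is not given in the sources used here. Sox2 ranged from 17.2 to 49.8 CPM over the 6 libraries, and 13 neuron markers summed to 2081 to 6394 CPM beside 1333 to 2255 CPM for 12 NPC markers, so neuronal transcripts accompanied those of progenitors. Library F differed from the others in background, since 1942 olfactory, vomeronasal and taste receptor genes, expected to be silent here, averaged 1.60 CPM per gene there and 0.0124 to 0.0546 CPM elsewhere.

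None of the 9 genes differed between Ybx1-KO and control NPCs after adjustment, and for each of the 9 the TMM-scaled values of the groups overlapped. Across all 21329 genes tested, edgeR's quasi-likelihood test called 0 genes (0%), where a call needs an adjusted p under 0.05 with more than 1.5-fold change, with 2393 at an unadjusted p below 0.05 (11.2%). The limma-voom method called 0 and DESeq2 called 118 higher and 96 lower, among which were 0 of the 9. The groups did not overlap for 13.2% of all genes tested (Ybx1-KO below control in 8.16%) and for 0 of the 9. Pax5 and En1, 2 of the 9, had an unadjusted p below 0.05 with higher means in Ybx1-KO, as did 6.96% of all genes, and 0 of the 9 had one with lower means, as did 4.26%. The log2 fold change was above 0 for 8 of the 9 and for 61.3% of all genes, and its median was 0.57 over the 9 and 0.31 over all genes tested. Both values for the 9 depended on single libraries, since 4 of the 9 were above 0 with a median of −0.05 without Ybx1-KO E, 5 of the 9 with a median of 0.06 without control A, and 8 of the 9 with a median of 1.40 without control B. All 9 exceeded a mean of 1 FPKM, the filter for testing, in both groups. An exact permutation test of 3 against 3 libraries cannot give a p below 0.1, and the values given for single genes below are two-sided.

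**Figure D1:**
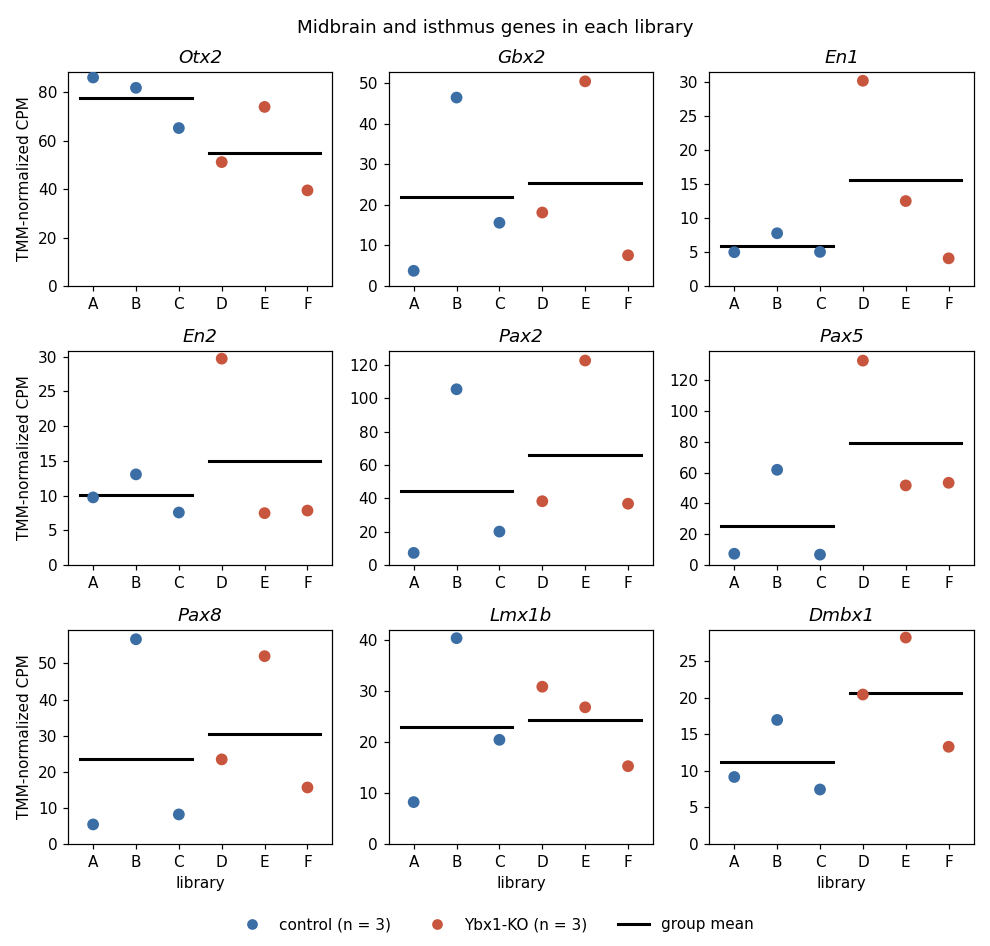
TMM-scaled CPM of each of the 9 genes (vertical axes, linear from 0) in the 3 control and 3 Ybx1-KO libraries, with 1 point per library and a bar at each group mean. Control B lies with the Ybx1-KO libraries for Pax2, Pax5, Pax8 and Gbx2, while controls A and C lie lower.

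The boundary pair had log2 fold changes of opposite sign, and neither passed the test. Otx2, which specifies forebrain and midbrain, had 86.0 (A), 81.8 (B) and 65.2 CPM (C) in control libraries and 51.1 (D), 73.9 (E) and 39.5 CPM (F) in Ybx1-KO libraries. Only E, the highest Ybx1-KO library, exceeded a control, so the overlap rested on E and C. The log2 fold change was −0.50 ± 0.382 (SE; 95% interval −1.25 to 0.25, adjusted p = 0.535 by edgeR's quasi-likelihood test), with an exact permutation p of 0.2. In FPKM, which is not TMM-scaled, Otx2 did not overlap, at 14.3 to 20.7 in controls and 12.8 to 14.1 in Ybx1-KO, as held for 11.1% of all genes tested, and only the narrow gap between C and F separated the groups.

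Gbx2, the Otx2 antagonist on the hindbrain side, had 3.73 (A), 46.4 (B) and 15.6 CPM (C) in control libraries and 18.1 (D), 50.4 (E) and 7.55 CPM (F) in Ybx1-KO libraries. Control B and Ybx1-KO E were high and control A and Ybx1-KO F low, so the spread within each genotype exceeded the difference between them. The highest control was 12.4 times the lowest. Ybx1-KO against control gave a log2 fold change of 0.21 ± 0.708 (95% interval −1.17 to 1.60, exact permutation p = 0.7). The ratio of Otx2 to Gbx2 in FPKM was 11.9, 0.909 and 2.16 in A, B and C and 1.46, 0.756 and 2.69 in D, E and F (exact permutation p = 0.6), and only control A stood apart, with far more Otx2 than Gbx2. The counts of Otx2 and Gbx2 are uncertain for strand, since antisense transcripts overlap their exons by 154 and 946 bases and the strand setting of the counting is not given in the sources used here.

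The Pax2, Pax5 and Pax8 paralogues, paired-box factors of the isthmic network, were the most variable of the 9 among control libraries, together with Gbx2. Pax2 had 7.27 (A), 105.5 (B) and 20.1 CPM (C) in control libraries and 38.3 (D), 122.8 (E) and 36.8 CPM (F) in Ybx1-KO libraries. The Ybx1-KO libraries all exceeded A and C, and B exceeded D and F. Its log2 fold change was 0.58 ± 0.707 (95% interval −0.81 to 1.96, exact permutation p = 0.5).

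Pax8 followed the same order at a lower level, with 5.43, 56.7 and 8.20 CPM in controls and 23.4, 52.0 and 15.7 CPM in Ybx1-KO, except that control B rather than E was highest. Its log2 fold change was 0.37 ± 0.682 (95% interval −0.96 to 1.71, exact permutation p = 0.6). The Pax8 to Pax2 ratio in FPKM stayed between 0.365 and 0.666 over the 6 libraries (exact permutation p = 0.7), while Pax2 itself varied 16.9-fold and Pax8 10.4-fold in CPM.

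Pax5 had the largest fitted difference of the 9, and it departed from the other Pax genes in library D. Its values were 7.32 (A), 61.9 (B) and 6.75 CPM (C) in control and 132.8 (D), 51.7 (E) and 53.4 CPM (F) in Ybx1-KO. Controls A and C were the lowest libraries and D the highest, and control B again fell among the Ybx1-KO libraries. The log2 fold change was 1.65 ± 0.689 (95% interval 0.30 to 3.00, unadjusted p = 0.0289 and adjusted p = 0.444 by edgeR's quasi-likelihood test, exact permutation p = 0.3). The Pax5 to Pax2 ratio in FPKM was 0.615, 0.358 and 0.206 in controls and 2.12, 0.257 and 0.887 in Ybx1-KO, so D and F had more Pax5 per Pax2 than any control and E had less than A and B (exact permutation p = 0.3).

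The Pax values depended on the library left out. With control B left out, Pax5 had a log2 fold change of 3.50 (edgeR quasi-likelihood adjusted p = 0.0028), that of Pax2 was 2.28 (adjusted p = 0.127) and that of Pax8 was 2.16 (adjusted p = 0.132), and Pax5 was then the only one of the 9 called, among 29 genes called higher and 44 lower. Without Ybx1-KO E, Pax5 was also called (log2 fold change 1.83, adjusted p = 0.0090), while Pax2 and Pax8 turned to −0.31 and −0.32. This Pax5 call without E had an adjusted p of 0.0714 when the genes tested were those of the full set of libraries. Leaving out any of the other 4 libraries called none of the 9. Exons of Pax8 and Pax5 overlap antisense transcripts by 367 bases and by 636 and 125 bases, respectively, so their counts are uncertain for strand too.

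**Figure D2:**
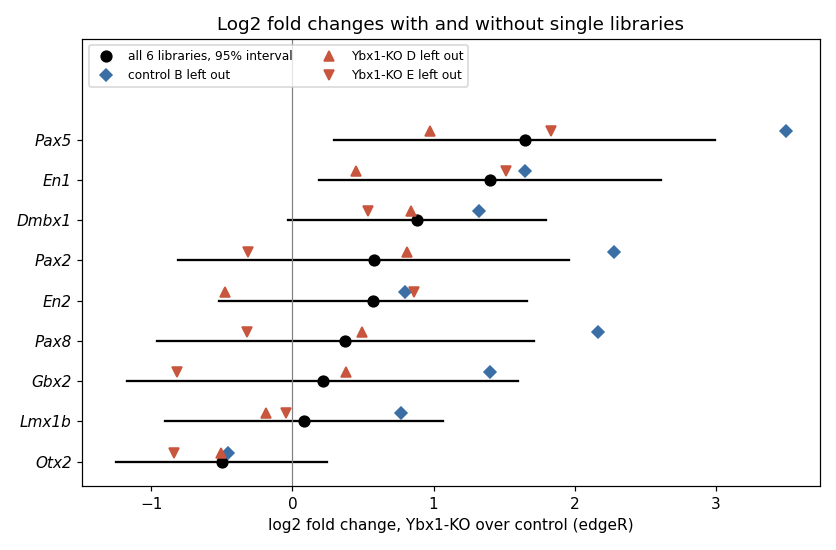
Log2 fold change of Ybx1-KO against control for the 9 genes (horizontal axis), with the fit on all 6 libraries and its 95% interval in black and the fits without control B, without Ybx1-KO D and without Ybx1-KO E as colored marks. The Pax5 and En1 intervals lie above 0, and the marks without control B lie farthest to the right for Pax2, Pax5, Pax8 and Gbx2.

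En1, an Engrailed homeobox factor of the midbrain and anterior hindbrain, was low and even among controls, with 4.96, 7.74 and 5.00 CPM in A, B and C, and uneven in Ybx1-KO, with 30.1, 12.5 and 4.06 CPM in D, E and F. D and E exceeded every control, and F lay below all of them, at 29 counts. The log2 fold change was 1.40 ± 0.620 (95% interval 0.18 to 2.61, unadjusted p = 0.0378 and adjusted p = 0.444 by edgeR's quasi-likelihood test, exact permutation p = 0.4), and without D it was 0.45. Its paralogue En2 had 9.73, 13.0 and 7.55 CPM in controls and 29.7, 7.46 and 7.83 CPM in Ybx1-KO, where only D stood above the controls. The log2 fold change of En2 was 0.57 ± 0.556 (95% interval −0.52 to 1.66, exact permutation p = 0.9), and without D it was −0.48. Both Engrailed genes were therefore highest in the same Ybx1-KO library, while the En1 to En2 ratio in FPKM was 0.687 to 0.893 in controls and 1.37, 2.25 and 0.698 in D, E and F (exact permutation p = 0.3).

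Lmx1b, a LIM homeobox factor needed to maintain isthmic signals, had 8.22 (A), 40.3 (B) and 20.4 CPM (C) in control libraries and 30.8 (D), 26.8 (E) and 15.2 CPM (F) in Ybx1-KO libraries. Every Ybx1-KO library lay between the lowest and the highest control. For Lmx1b the log2 fold change was 0.08 ± 0.502 (95% interval −0.90 to 1.06, exact permutation p = 1), and its sign changed with the filter on low counts and with the library left out.

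Dmbx1 had 9.16, 17.0 and 7.45 CPM in controls and 20.4, 28.2 and 13.3 CPM in Ybx1-KO. Only control B, which exceeded Ybx1-KO F, kept the groups from separating. The log2 fold change was 0.88 ± 0.466 (95% interval −0.03 to 1.80, unadjusted p = 0.0751 and adjusted p = 0.450 by edgeR's quasi-likelihood test, exact permutation p = 0.2), and it stayed between 0.53 and 1.32 with each library left out. In FPKM the Ybx1-KO libraries had 3.68, 3.54 and 3.42, all above the 1.18 to 2.63 of controls. The groups did not overlap in FPKM, in either direction, for 11.1% of all genes tested. The overlap of Dmbx1 thus depended on TMM scaling, whose factor was 1.51 for F and 0.734 for E. Silent receptor genes averaged 0.925 FPKM in F, and the part of this background in the Dmbx1 separation was not tested.

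Per length, Otx2 was the highest of the 9 in controls, at a mean of 17.5 ± 3.20 FPKM (SD, n = 3), followed by Gbx2 (9.24 ± 9.10), Pax2 (7.51 ± 8.91), Lmx1b (4.36 ± 2.93), Pax8 (3.56 ± 4.29), En2 (2.71 ± 0.689), Pax5 (2.63 ± 3.22), En1 (2.12 ± 0.490) and Dmbx1 (1.80 ± 0.748). Each gene in this order differed from the next by less than the larger of their SDs, so neighbours are not resolved. In Ybx1-KO libraries Otx2 had 13.2 ± 0.729 FPKM, Pax2 11.5 ± 4.71, Gbx2 10.3 ± 6.04 and Pax5 9.74 ± 5.80, and these 4 neighbours also lay within the SD of the next. By these means Pax5 went from the seventh rank in controls to the fourth in Ybx1-KO, and En1 from the eighth to the fifth. The Ybx1-KO mean of En1 was 5.98 ± 5.35 FPKM, with 12.1 in D, 3.49 in E and 2.33 in F, so its rank there rested on D. In library F the silent receptor genes averaged 0.925 FPKM per gene, against a lowest value of 2.33 FPKM among the 9 genes there.

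**Figure D3:**
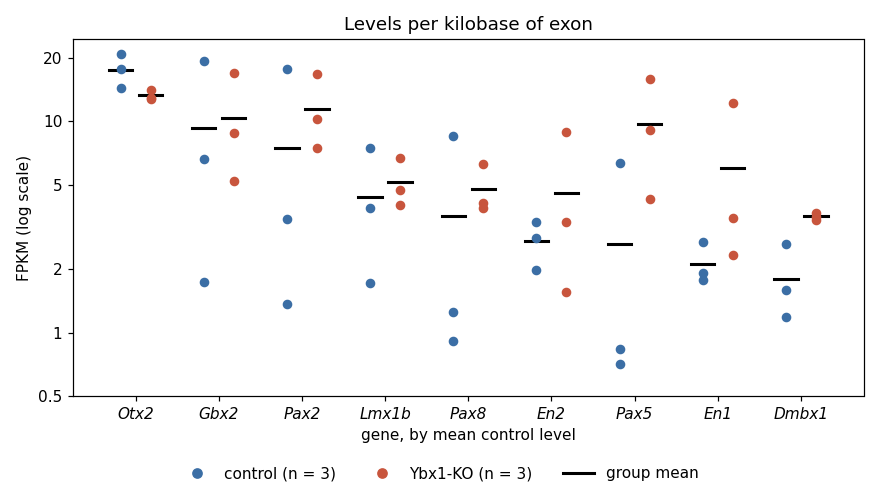
FPKM (vertical axis, log scale) of the 9 genes, ordered by their control mean, with 1 point per library and a bar at each group mean. Otx2 is the highest in controls, and the control points of Gbx2, Pax2, Pax5 and Pax8 spread over about an order of magnitude.

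The libraries also differed in transcripts of other regions of the neural tube, and control B stood with the Ybx1-KO libraries in these. The 15 forebrain transcription factors summed to 1337 (A), 188 (B) and 1577 CPM (C) in control libraries and to 361 (D), 291 (E) and 114 CPM (F) in Ybx1-KO libraries. The 8 choroid plexus markers summed to 730, 45.8 and 972 CPM in controls and 53.4, 64.0 and 58.8 CPM in Ybx1-KO, led by Ttr, the thyroid hormone carrier of that tissue. Low forebrain and choroid plexus sums thus marked B, D, E and F, and high sums A and C.

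The sums of posterior genes ran the other way. Spinal cord Hox genes, listed with Cdx2, summed to 57.8, 498 and 172 CPM in controls and 624, 614 and 307 CPM in Ybx1-KO, and 14 anterior hindbrain genes to 109, 307 and 120 CPM and to 428, 373 and 231 CPM. Spinal and hindbrain interneuron markers summed to 172, 577 and 176 CPM in controls and to 689, 612 and 247 CPM in Ybx1-KO, again with B between D, E and F. The 9 genes described here summed to 142, 430 and 156 CPM in controls and to 375, 426 and 193 CPM in Ybx1-KO. For this sum controls A and C were again the lowest, and control B was slightly above E, the highest Ybx1-KO library. Control B was the highest control for 8 of the 9, all but Otx2, against 30.1% of all genes tested, and had at least 2 times the level of both A and C for Pax2, Pax5, Pax8 and Gbx2, 4 of the 9 against 12.9%. Whether the proportion of cells from each region differed between libraries was not tested as a part of these differences, and in bulk RNA fewer cells of a type cannot be told apart from less RNA per cell.

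**Figure D4:**
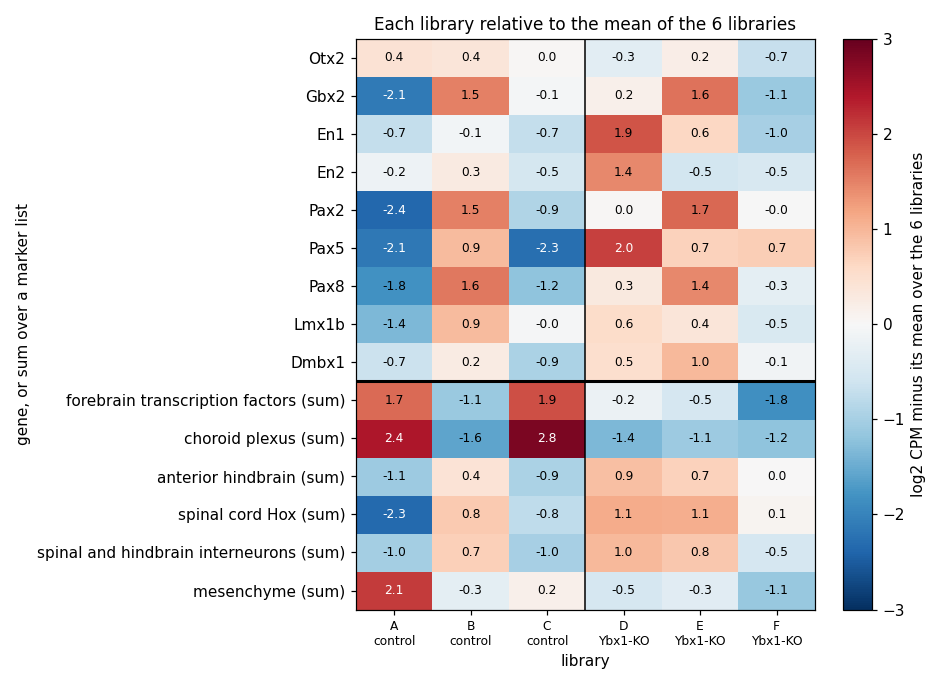
Log2 CPM of each gene, and of the summed CPM of 6 marker lists, in each library minus its mean over the 6 libraries (color, red above and blue below the mean, value printed in each cell). Control B lies above the mean for the 3 Pax genes, Gbx2 and the hindbrain and Hox sums and below it for the forebrain and choroid plexus sums, on the opposite side from controls A and C.

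Of the secreted signals of the isthmus, Wnt1 and Fgf17 were higher in every Ybx1-KO library than in any control (4.99% of all genes tested separated in this direction). Both passed the expression filter through the Ybx1-KO group alone, with control means of 0.463 and 0.819 FPKM and Ybx1-KO means of 5.13 and 2.38 FPKM, so a higher Ybx1-KO value was favored by the filter and the separation is a description only. Wnt1, which maintains midbrain progenitors, had 1.61 (A), 1.84 (B) and 0 CPM (C) in control libraries and 7.59 (D), 25.8 (E) and 6.44 CPM (F) in Ybx1-KO libraries (log2 fold change 3.52 ± 1.01, unadjusted p = 0.00293 and adjusted p = 0.349 by edgeR's quasi-likelihood test). Control B did not resemble the Ybx1-KO libraries for Wnt1, in contrast to its Pax2, Pax5 and Pax8 levels. Fgf17, an Fgf8 relative, had 1.46, 1.20 and 1.70 CPM in controls and 2.79, 5.52 and 3.36 CPM in Ybx1-KO (log2 fold change 1.42 ± 1.06, adjusted p = 0.535 by the same edgeR test). The 3.36 CPM of F stood beside the 1.60 CPM that silent receptor genes averaged in that library, and the part of this background in the Fgf17 separation was not tested. Fgf8, the principal organizer signal, did not pass the expression filter, with 1, 6 and 11 counts in controls and 3, 10 and 4 in Ybx1-KO, too few to detect a difference at this depth. Fgf15 and Fgf18 had log2 fold changes of 0.52 and −0.03. Of 10 tested genes that respond to FGF, 5 were higher and 5 lower, 0 at an unadjusted p below 0.05 in either direction (median 0.13), with Dusp6, an FGF-induced phosphatase, at 0.72 and the Ets factor Etv5 at −0.72. Of these 10, 1 passed the filter through the Ybx1-KO group alone and 1 through the control group alone. The other 8 were split 4 higher to 4 lower (median 0.13).

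**Figure D5:**
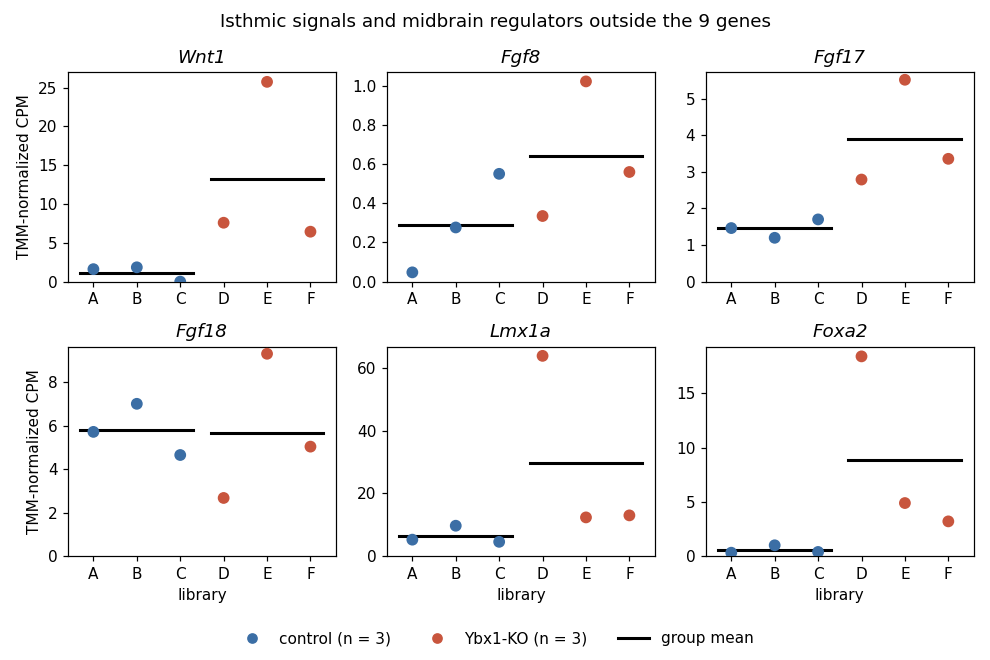
TMM-scaled CPM (vertical axes, linear) of Wnt1, Fgf8, Fgf17, Fgf18, Lmx1a and Foxa2 in the 6 libraries, with 1 point per library and a bar at each group mean. Wnt1, Fgf17, Lmx1a and Foxa2 are higher in D, E and F than in A, B and C, whereas Fgf8 stays near the limit that 3 counts allow.

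The neighbouring gene groups of the midbrain had 0 adjusted calls as well. Of 14 dorsal midbrain and roof genes tested, 10 were higher and 4 lower (median log2 fold change 0.52, 4 higher at an unadjusted p below 0.05), and 1 of the 14 passed the filter through the Ybx1-KO group alone. That gene, Gdf7, was also among the 4 at an unadjusted p below 0.05. They included Lmx1a, the roof plate LIM homeobox factor, at 5.29, 9.72 and 4.60 CPM in controls and 63.7, 12.4 and 13.0 CPM in Ybx1-KO (log2 fold change 2.18 ± 0.602, adjusted p = 0.315 by edgeR's quasi-likelihood test). Msx1, a BMP-responsive factor, had a log2 fold change of 1.88, and like Lmx1a it did not overlap between the groups. Lmx1b, in contrast to its paralogue Lmx1a, overlapped fully.

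Of 12 ventral midbrain and dopaminergic lineage genes tested, 10 were higher and 2 lower (median 1.33, 6 higher at an unadjusted p below 0.05). Of these, Foxa2, Corin and Sim1 were tested through their Ybx1-KO means alone and had to be higher, and among the other 9 genes 7 were higher and 2 lower (median 0.90). Foxa2 and Corin were also among the 6 at an unadjusted p below 0.05. Foxa2, the floor plate forkhead factor, had a mean of 0.229 FPKM in controls and 3.92 FPKM in Ybx1-KO, with 8.21 in D, 1.52 in E and 2.05 in F. The 2.05 FPKM of F stood beside the 0.925 FPKM that silent receptor genes averaged in that library. The part of this background in the Foxa2 difference was not tested. Th, which makes the dopamine precursor and passed the filter in both groups, had a log2 fold change of 1.46 without overlap. Of 9 midbrain GABAergic lineage genes, 6 were higher and 3 lower (median 0.20, 2 higher at an unadjusted p below 0.05). Gata2, which specifies these neurons, was at 1.72, and Gad2, 1 of the 3 lower, was at −0.80. Both overlapped between the groups. In this list 1 gene passed the filter through the Ybx1-KO group alone, and of the other 8, 5 were higher and 3 lower (median 0.17). Many of these factors are also used in the spinal cord floor plate, roof plate and interneurons, and the Hox and interneuron sums given above moved alongside; their part was not tested.

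Among the lists of other regions, 13 of 14 anterior hindbrain genes were higher (median 1.22, 4 at an unadjusted p below 0.05), with Hoxb2, the hindbrain segment factor, at 2.56. Likewise 13 of 14 tested genes of the spinal cord Hox list were higher (median 0.89, 3 at that p). Cdx2, the 1 gene of that list that is not a Hox gene, had 55 counts in library F and 0 to 7 in the others. Among the 13 Hox genes tested, 12 were higher. Also higher were 11 of 13 interneuron markers (median 1.15, 4 at that p and 1 lower) and 7 of 9 inner ear and kidney genes that share Pax2 or Pax8 expression (median 1.13, 2 at that p). Conversely, 11 of 14 forebrain factors were lower (median −2.36, 7 at an unadjusted p below 0.05 and 1 higher), as were 6 of 7 choroid plexus genes (median −1.88, 2 at that p) and 9 of 9 mesenchyme genes (median −1.58, 5 at that p). The choroid plexus count and median include Otx2 itself, which was left out of the choroid plexus sum given above. The filter had let in 4 of the 14 hindbrain, 1 of the 14 Hox list (Cdx2), 3 of the 13 interneuron and 4 of the 9 inner ear and kidney genes through the Ybx1-KO group alone, and over the genes that passed in both groups the medians were 0.79, 0.89, 1.15 and 0.93. It let in 1 of the 14 forebrain, 2 of the 7 choroid plexus and 1 of the 9 mesenchyme genes through the control group alone, which favored lower values. The Ybx1-KO group alone let in 1 forebrain and 1 choroid plexus gene. Over the genes that passed in both groups these medians were −2.455, −1.515 and −1.277. Genes counted at an unadjusted p below 0.05 included some let in by 1 group alone, such as Hoxb1, Foxd3, Otog, Kcne2 and Dcn. The 12 NPC markers were split 8 higher to 4 lower (median 0.45, 4 and 1 at that p), the 13 neuron markers 4 to 9 (median −0.25, 1 and 1) and the 10 erythroid genes 5 to 5 (median −0.14, 1 and 3). With 1 library left out, the Hox gene median was lowest without control A (0.42) and highest without control B (2.19), and leaving out the same 2 libraries gave the extremes of 0.78 and 2.28 for the interneuron markers and 0.74 and 2.06 for the inner ear and kidney genes. Hindbrain genes had medians from 0.90 (without control C) to 2.02 (without control B). Medians ran from −2.90 (without control B) to −1.35 (without control C) for the forebrain factors, −2.68 (without F) to −0.78 (without D) for the choroid plexus genes and −1.97 (without control B) to −0.55 (without control A) for the mesenchyme genes. Hox genes higher at an unadjusted p below 0.05 numbered 0 without control A and 9 without control B. The other medians ran from 0.33 (without D) to 0.89 (without F) for dorsal midbrain genes, 1.00 (without A) to 1.68 (without B) for ventral midbrain genes, 0.14 (without A) to 0.54 (without B) for GABAergic genes, −0.31 (without D) to 0.36 (without B) for FGF response genes, 0.22 (without E) to 0.54 (without B) for NPC markers, −0.66 (without E) to 0.10 (without F) for neuron markers and −1.01 (without D) to −0.02 (without A) for erythroid genes.

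The genes most like each of the 9 across the 6 libraries were found as the smallest root mean square difference between centred log2(CPM + 0.5) profiles, among 10860 genes. For Pax2 these were Hoxa6 (0.214), Mreg (0.277) and Pax8 (0.319), the sole pair of the 9 in which either was among the 3 nearest of the other. For Pax8 they were Chrna4 (0.214), Tfap2a (0.260) and Mreg (0.282). Pax5 was nearest to Evx1 (0.383), Evx2 (0.395) and Nefm (0.413), where Evx1 and Evx2 are homeobox factors of spinal interneurons. Hox and Evx genes were thus among the neighbours of the Pax genes.

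Among the 9, Gbx2 lay farthest from its nearest genes, which were Mab21l2 (0.433), Rara (0.443) and Eif3j2 (0.445). Pax2 had rank 8 (0.556) and Pax8 rank 13 (0.572) among the 10860 genes ranked for Gbx2. Otx2, the flattest profile, lay within 0.0478 of Prkaa2, followed by Nfx1 and Cab39. The difference is not scaled to the spread of a gene, so flat profiles tend to give smaller values. En1 was nearest to Rassf3 (0.178), Kti12 and Nxn, En2 to Stx17 (0.131), Zbtb8a and Sdcbp, Lmx1b to Zswim5 (0.237), Zfp629 and Tshz2, and Dmbx1 to Plk3 (0.104), Tead1 and Dll1. En1 and En2 differed from each other by 0.577, so these paralogues were less alike across the libraries than Pax2 and Pax8. With only 6 libraries, which differed in depth and in the marker sums of other regions, such likeness is a description only.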

How the data were processed

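Per the labels and the study's methods, total RNA of sorted E13.5 NPCs was prepared with a stranded total RNA kit and sequenced as read pairs on Illumina HiSeq instruments of either of 2 models, with no record of which library ran on which. The authors mapped the reads and counted them on GENCODE genes with HTSeq 0.6.1p1, and they deposited raw counts per gene symbol, 1 table per library, without normalization or pooling. The submitters' processing notes name mm10 and GRCm38.p5; the aligner and the strand setting are not given in the sources used here. Rows that tally reads outside genes were left out of library sizes (30.6% to 59.5% of read pairs fell outside genes).

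Counts were analysed in R 4.3.3 with edgeR 4.0.16 (TMM, quasi-likelihood test, Benjamini-Hochberg adjustment over all genes tested, no covariate), since the values are counts. The study's limma-voom method (limma 3.58.1) and DESeq2 1.42.0 were alternatives. Genes were tested where the mean FPKM of at least 1 group exceeded 1, on the union of exons in GENCODE M21 (GRCm38). Of 51733 symbols, 47624 were found there directly and 358 through an older name, leaving 3751 without a length. Standard errors are the absolute log2 fold change divided by the root of the F statistic, and 95% intervals are 1.96 SE on each side. The fit was tested on simulated data. Figures used matplotlib 3.10.9 in Python 3.11.15.

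Controls A and B share a number in their titles, as do Ybx1-KO D and E, and the title of F carries none. If the number marks a litter, those libraries are related, and p-values measure only the spread between these libraries, which may be technical. The titles share no number between the groups, so in that case litter and genotype could not be told apart for the numbered libraries. No 2 libraries were copies of each other. Counts have no molecular identifiers, so the 3-count limits cover counting error only. The 9 genes and the marker lists were chosen with earlier results of these data known. By rule, the text could name the 9 genes, Ybx1, Sox2, Wnt1, Fgf8 and Fgf17, up to 4 tested genes per list with the smallest unadjusted p, and the 3 nearest protein-coding genes with a mean of at least 5 CPM for each of the 9, and some of these are left unreported. Alternatives were other scalings, other filters, removal of the 20 most counted genes, robust dispersion and leaving out each library. Leaving out a library while keeping the genes tested was added after seeing the data.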

Additional observations from a re-analysis of the deposited data

How the results depend on the processing

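Over the 10 fits on all 6 libraries, the log2 fold changes of the 9 genes kept their sign except that of Lmx1b, which was −0.015 without the filter on low counts, and 0 of the 9 were called in any of them. The count of called genes was 118 higher and 96 lower by DESeq2 and 113 higher and 80 lower without the filter. Leaving out 1 library called 0 to 531 genes higher and 0 to 247 lower, and 0 to 1 of the 9, the 1 being Pax5 without control B or without Ybx1-KO E. With the genes tested kept the same, these ranges were 0 to 283, 0 to 137 and 0 to 1. The leave-one-out log2 fold changes ran from −0.82 to 1.40 for Gbx2, −0.31 to 2.28 for Pax2, −0.32 to 2.16 for Pax8, −0.48 to 0.92 for En2, −0.32 to 0.77 for Lmx1b, 0.97 to 3.50 for Pax5, 0.45 to 1.88 for En1, 0.53 to 1.32 for Dmbx1 and −0.84 to −0.30 for Otx2. The sign of Pax8 also turned without control A (−0.10) or C (−0.03). The median log2 fold change of all genes tested was 0.31, and it was 0.51 with library totals, 0.40 with RLE size factors and 0.08 with a filter of CPM above 1 in 3 libraries. The cause was not tested. The common biological coefficient of variation was 0.800, and 3 libraries per group limit what can be called. No paired analysis was possible because the titles share no number between the groups.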

Other observations

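The globin genes Hbb-bs and Hbb-bh1 of the erythroid list set controls A and C apart from the other 4 libraries. Hbb-bs, an adult beta-globin, had 593 (A), 16.1 (B) and 188 CPM (C) in control libraries and 20.0 (D), 6.23 (E) and 4.90 CPM (F) in Ybx1-KO libraries. Hbb-bh1, an embryonic beta-like globin expressed earlier in gestation, had 0.803, 16.2 and 0.700 CPM in controls and 51.6, 20.3 and 9.93 CPM in Ybx1-KO. Control B and the Ybx1-KO libraries thus had less Hbb-bs and more Hbb-bh1 transcript than A and C. The 10 erythroid genes summed to 1209 (A), 993 (B) and 517 CPM (C) in controls. In Ybx1-KO they summed to 1226 (D), 505 (E) and 211 CPM (F), so the sum did not set A and C apart. The part of embryo stage or of blood carried into the sort was not tested.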
